A study of Mus musculus with 16 samples.

Results

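Unsorted mouse muscle cultures that the labels call bulk MPC were compared with unsorted primary myoblasts, called bulk myoblasts, across all genes. The comparison uses the 3 bulk MPC and 3 bulk myoblast libraries, 6 of the 16 libraries of the series, chosen by their labels and not by any measured value. The series also holds 3 libraries of myoblasts after 3 days of differentiation, 3 libraries each of GFP+ MPC and GFP+ myoblasts sorted for a Pax7 reporter, and 1 high-passage GFP+ MPC library. The labels do not spell out MPC, and the series title speaks of turning committed myoblasts into muscle stem cells with small molecules.

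All cells of the groups compared here came from the skeletal muscle of male Pax7-nGFP mice of 16 weeks, in which a nuclear GFP reports the transcription factor Pax7. Bulk MPC had 2 to 3 passages as myoblasts and then 5 to 6 passages in a medium of KnockOut DMEM with 10% FBS, 10% KnockOut Serum Replacement, 10 ng/ml bFGF, 5 µM forskolin, 5 µM RepSox and 3 µM of a compound written CHIR9901 in the labels. Bulk myoblasts were taken at passage 3 in a 1:1 mixture of DMEM and F10 with 10% horse serum, 20% FBS and 10 ng/ml bFGF. The differentiated myoblasts, set beside both for scale, were kept for 3 days in 2% horse serum at passage 4 to 5. The reporter was not used to select cells in these cultures, so each library is the RNA of whatever the dish held. The compounds, the serum and base medium, and the number of passages all differ between bulk MPC and bulk myoblasts and cannot be told apart in this comparison.

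Forskolin activates adenylyl cyclase and so raises cAMP, and RepSox inhibits the type I receptor of TGF-beta. Muscle stem cells express Pax7, and when they are activated they become proliferating myoblasts that express Myod1. Myoblasts that leave the cell cycle switch on Myog, fuse to multinucleated fibres and build sarcomeres, first with embryonic and neonatal and later with adult isoforms of the contractile proteins.

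Sequencing was of polyadenylated RNA, with single reads, and the 6 libraries held between 19.9 M and 29.1 M estimated counts, assigned to transcripts and summed per gene here. The 10 most abundant genes took 12% to 14.1% of the counts in bulk MPC and 7.09% to 7.72% in bulk myoblasts. Mitochondrially encoded genes took 8.37% to 9.85% in bulk MPC and 4.04% to 4.58% in bulk myoblasts. Levels below are CPM, counts scaled to library size by TMM, which sets the libraries to a common bulk of genes. Values of 3 libraries stand in the order of replicates 1 to 3. The ± after a log2 fold change is its standard error, and adjusted p values come from edgeR's quasi-likelihood test with Benjamini-Hochberg adjustment over all tested genes.

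The cultures differed across most of the transcriptome. Of 15533 genes tested, 9087 (58.5%) differed, and 4408 (28.4%) were higher and 4679 (30.1%) lower in bulk MPC at an adjusted p under 0.05, and 2379 (15.3%) were at least 2-fold higher and 2589 (16.7%) at least 2-fold lower. All 3 bulk MPC libraries lay above all 3 bulk myoblast libraries for 5227 genes (33.7%) and below them for 5528 (35.6%). With library totals in place of TMM the split was 2747 higher and 6985 lower, because that scaling moved the median of all genes by -0.36 on the log2 scale. All changes here are relative to the TMM scale. With most genes called, counts of a gene list are read against these shares, and a list near 28.4% higher and 30.1% lower is not set apart.

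The first principal component of the 6 libraries carried 82.9% of the variance and separated the cultures, with bulk MPC at -93.2, -72.8 and -100 and bulk myoblasts at 89.6, 104 and 72.6. The second carried 7.08% and separated bulk MPC replicate 2, at -52.7, from the other 5 libraries, which lay between -4.21 and 32.4. Replicate 2 had more RNA of cycling and matrix genes than its 2 sister libraries, as described with those genes. Without it, 4211 genes were higher and 4614 lower in bulk MPC.

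**Figure D1:**
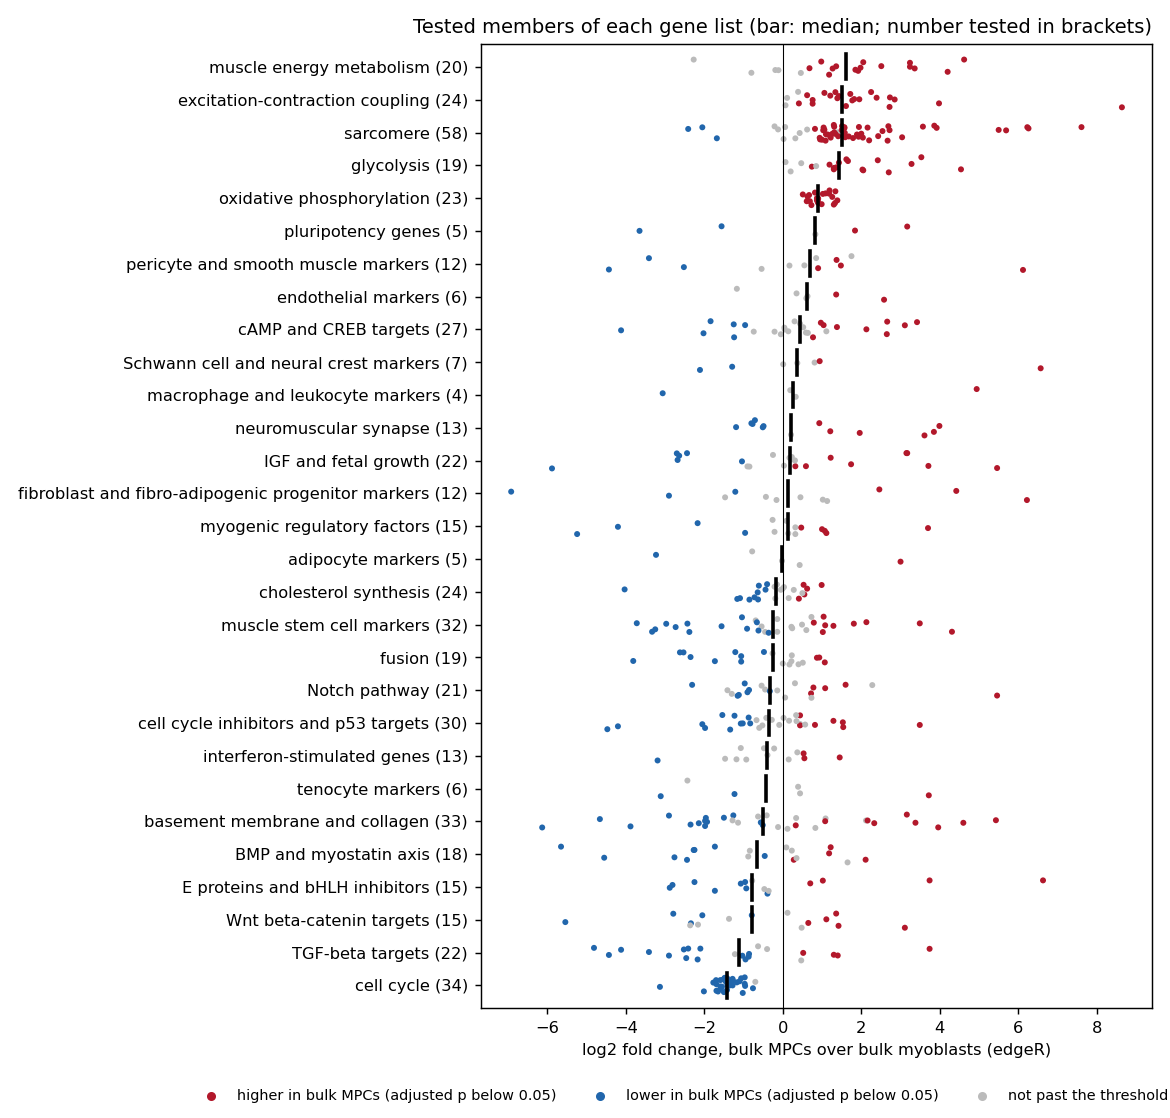
Log2 fold change of bulk MPC over bulk myoblasts (x axis) for each tested member of the gene lists (rows, sorted by their median, with the number of tested members in brackets), where each point is a gene, red or blue where edgeR's adjusted p was under 0.05 and grey otherwise, and the black bar is the median. Lists of muscle energy metabolism, excitation-contraction coupling, sarcomere and glycolysis have medians of 1.43 to 1.61, and the cell cycle list has a median of -1.42 with no member above 0.

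Both cultures carried the markers of muscle cells. Cdh15 had 515, 526 and 595 CPM in the bulk MPC libraries, against 433, 421 and 554 CPM in the bulk myoblast libraries (log2 fold change 0.22 ± 0.13, adjusted p = 0.157); it encodes M-cadherin, the adhesion protein of the myogenic lineage. Ncam1 had 1193, 946 and 1141 CPM in the bulk MPC libraries, against 1222, 1192 and 1212 CPM in the bulk myoblast libraries (log2 fold change -0.14 ± 0.20, adjusted p = 0.553), and its product is another myogenic surface protein. Neither gene passed the test, and the groups overlapped for both; Cdh15 passed in the 6 libraries alone with the replicate block (adjusted p = 0.0456) and without bulk myoblast replicate 3 (adjusted p = 0.0311). Des, the muscle intermediate filament, was abundant in every library, with 7116, 5959.9 and 5964 CPM in the bulk MPC libraries, against 2295, 2106 and 2437 CPM in the bulk myoblast libraries (log2 fold change 1.48 ± 0.19, adjusted p = 3.26e-05).

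Pax7 and Myod1, the factors of the stem cell and the committed myoblast, were both lower in bulk MPC. Pax7 had 66.1, 136 and 56.9 CPM in the bulk MPC libraries, against 546, 654 and 525 CPM in the bulk myoblast libraries (log2 fold change -2.73 ± 0.35, adjusted p = 2.67e-05). The groups did not overlap, and replicate 2 had the highest Pax7 level among the bulk MPC libraries. Myod1 had 179, 148 and 157 CPM in the bulk MPC libraries, against 673, 819 and 687 CPM in the bulk myoblast libraries (log2 fold change -2.17 ± 0.28, adjusted p = 2.57e-05), again without overlap. Myf6, also called MRF4, the member of the Myod1 family that is most abundant in adult fibres, was higher, with 271, 174 and 163 CPM in the bulk MPC libraries, against 20.6, 9.04 and 17 CPM in the bulk myoblast libraries (log2 fold change 3.70 ± 0.40, adjusted p = 6.73e-06). Every bulk MPC library was above every bulk myoblast library.

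The other 2 members of the family did not pass the test. Myog had 949.5, 833 and 1059.5 CPM in the bulk MPC libraries, against 1045, 963 and 1282 CPM in the bulk myoblast libraries (log2 fold change -0.21 ± 0.42, adjusted p = 0.689), so the differentiation factor was abundant in both unsorted cultures and its levels overlapped. Myf5 had 54.9, 35.6 and 21.9 CPM in the bulk MPC libraries, against 35.2, 28.5 and 26.8 CPM in the bulk myoblast libraries (log2 fold change 0.32 ± 0.27, adjusted p = 0.325), with the highest and the lowest of the 6 values both in bulk MPC. Of the 15 tested regulatory factors, 5 were higher and 4 lower in bulk MPC, with a median log2 fold change of 0.14 on the TMM scale and -0.23 on that of library totals. Mef2c had 1269.6, 1045 and 1313 CPM in the bulk MPC libraries, against 603, 373 and 705 CPM in the bulk myoblast libraries (log2 fold change 1.11 ± 0.26, adjusted p = 0.00286); this MADS-box factor drives contractile genes together with the Myod1 family. Its partner Mef2d had 528, 520.1 and 667 CPM in the bulk MPC libraries, against 253, 217 and 348 CPM in the bulk myoblast libraries (log2 fold change 1.07 ± 0.16, adjusted p = 8.16e-05). Both Mef2 genes lay higher in every bulk MPC library than in any bulk myoblast library. Of the Eya genes and their partner Six2, which act upstream of Myod1, Eya1 was higher in bulk MPC (1.00, adjusted p = 0.000633) while Eya2 (-5.24, adjusted p = 8.37e-05) and Six2 (-4.20, adjusted p = 0.00011) were lower.

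Of 32 muscle stem cell markers, 9 were higher and 13 lower in bulk MPC, with a median of -0.25. Surface markers leaned one way, with 2 of 11 higher and 7 lower. Vcam1 had 4.88, 18.2 and 2.72 CPM in the bulk MPC libraries, against 88.9, 94.9 and 79 CPM in the bulk myoblast libraries (log2 fold change -3.33 ± 0.53, adjusted p = 0.000149); it encodes an adhesion receptor used to isolate satellite cells. Cd34 had 0.279, 0.715 and 0.309 CPM in the bulk MPC libraries, against 6.32, 6.90 and 4.34 CPM in the bulk myoblast libraries (log2 fold change -3.72 ± 0.64, adjusted p = 0.000269), and this sialomucin marks quiescent satellite cells in mice. Both were lower in every bulk MPC library, and Vcam1 in replicate 2 was several times its level in replicates 1 and 3. Sdc3, encoding a heparan sulfate proteoglycan of satellite cells, fell to 21.4, 38.4 and 22.4 CPM in bulk MPC, against 268, 344 and 174 CPM in bulk myoblasts (log2 fold change -3.25 ± 0.51, adjusted p = 0.000127). The receptor of hepatocyte growth factor, Met, fell to 14.6, 20.3 and 19.6 CPM in bulk MPC, against 157, 145 and 126 CPM in bulk myoblasts (log2 fold change -2.97 ± 0.32, adjusted p = 6.95e-06). The chemokine receptor gene Cxcr4 fell as well (-2.38, adjusted p = 7.66e-05).

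Among the 9 markers that were higher in bulk MPC were Cdkn1c, Rgs2 and Spry1. Cdkn1c had 941, 914 and 966 CPM in the bulk MPC libraries, against 54.3, 24.5 and 172 CPM in the bulk myoblast libraries (log2 fold change 3.49 ± 0.60, adjusted p = 0.000257); it encodes the CDK inhibitor p57 and is imprinted. Its 3 bulk MPC values were close to each other, and the bulk myoblast values ranged widely below them. Rgs2 had 12, 10.2 and 10.9 CPM in the bulk MPC libraries, against 1.60, 2.14 and 3.81 CPM in the bulk myoblast libraries (log2 fold change 2.13 ± 0.33, adjusted p = 0.000119); Rgs2 limits G protein signalling. Spry1 had 143, 105 and 134 CPM in the bulk MPC libraries, against 32.1, 23 and 53.8 CPM in the bulk myoblast libraries (log2 fold change 1.81 ± 0.33, adjusted p = 0.000422); Spry1 restrains FGF signalling and is needed for the return of satellite cells to quiescence. Calcr, the calcitonin receptor of quiescent satellite cells, had 0.0929, 0.0953 and 0.124 CPM in bulk MPC and no count in any bulk myoblast library, which is at least 2.74-fold higher when 3 counts over the bulk myoblast group are taken as the floor. These counts are at the limit of detection, and the call ended when 1 library was left out (adjusted p up to 0.058). Itga7, the laminin-binding integrin subunit of muscle, was higher (1.04, adjusted p = 6.29e-05). Fgfr4, an FGF receptor of satellite cells, did not pass the test, with 56.9, 128 and 86.8 CPM in the bulk MPC libraries, against 49.6, 41.9 and 87.9 CPM in the bulk myoblast libraries (log2 fold change 0.60 ± 0.29, adjusted p = 0.0944).

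**Figure D2:**
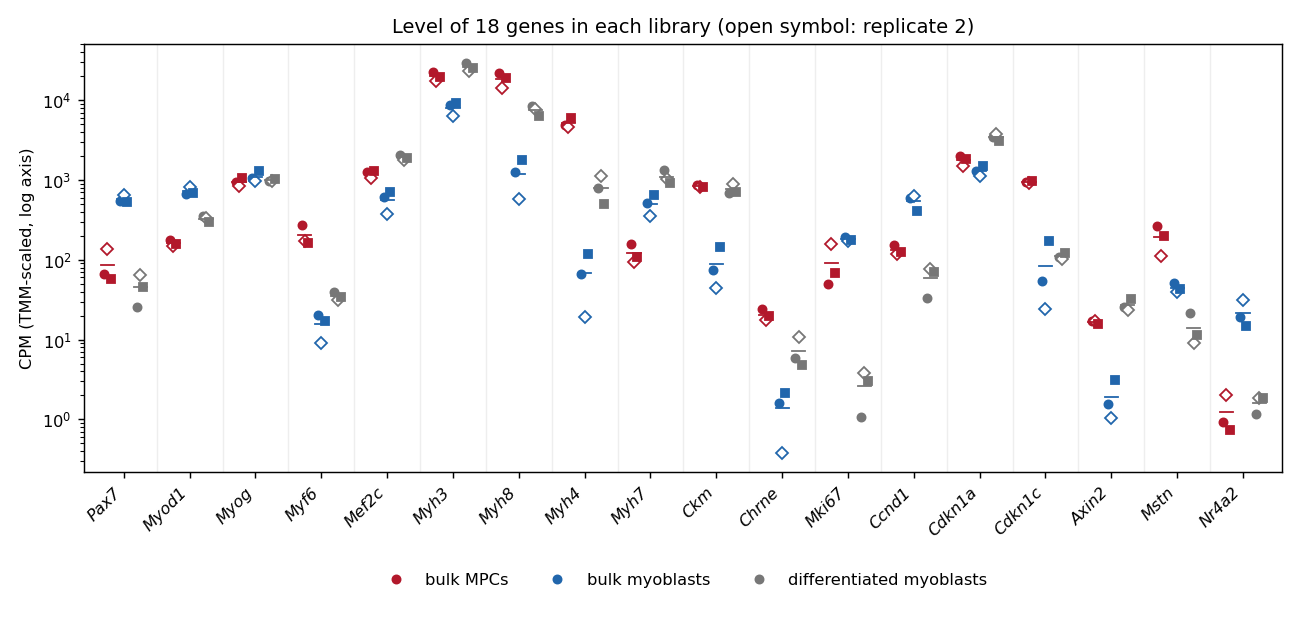
CPM (log axis) of 18 named genes in the 3 bulk MPC, 3 bulk myoblast and 3 differentiated myoblast libraries, 1 point a library, with replicate 2 of each group drawn open. Pax7 and Myod1 lie lower in all bulk MPC than in all bulk myoblast libraries, Myf6, Myh4 and Ckm lie higher, and replicate 2 of bulk MPC is the highest of its group for Mki67.

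The genes of the contractile apparatus were the largest block that was higher in bulk MPC. Of 58 tested sarcomere genes, 47 were higher and 3 lower, with a median log2 fold change of 1.50, against -0.01 over all tested genes. They held 10.9% to 13% of all counts in bulk MPC and 3.80% to 5.54% in bulk myoblasts, while in differentiated myoblasts they held 11.7% to 12.9%. Without replicate 2 the counts were 48 higher and 3 lower. In bulk RNA, more differentiated cells and more of these RNAs per cell cannot be told apart.

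Titin and the proteins of the Z disc and M band, which hold the filaments in register, moved almost as one, with 29 of 31 higher and none lower. Mybpc2 had 237, 228 and 222 CPM in the bulk MPC libraries, against 0.865, 0.428 and 2.10 CPM in the bulk myoblast libraries (log2 fold change 7.61 ± 0.57, adjusted p = 1.42e-06); it encodes the fast isoform of myosin binding protein C. Myoz1 had 606, 465 and 531 CPM in the bulk MPC libraries, against 7.06, 1.90 and 12 CPM in the bulk myoblast libraries (log2 fold change 6.23 ± 0.63, adjusted p = 4.09e-06); its product, myozenin 1, sits at the Z disc of fast fibres. Both genes were scarce in bulk myoblasts and higher in every bulk MPC library. Tmod4 had 129.7, 129.7 and 151 CPM in the bulk MPC libraries, against 3.23, 0.619 and 3.88 CPM in the bulk myoblast libraries (log2 fold change 5.69 ± 0.58, adjusted p = 4.20e-06); this tropomodulin caps the thin filaments of muscle. Ttn had 5542, 5889 and 7652 CPM in the bulk MPC libraries, against 3305, 1350.2 and 1717 CPM in the bulk myoblast libraries (log2 fold change 1.58 ± 0.35, adjusted p = 0.00161); Ttn encodes the giant elastic protein titin. The groups did not overlap.

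All 5 tested myosin light chain genes were higher. Myl1 had 8087, 5963 and 7223 CPM in the bulk MPC libraries, against 1783, 1209 and 1772 CPM in the bulk myoblast libraries (log2 fold change 2.16 ± 0.33, adjusted p = 0.000101), and the groups stood well apart. Mylpf had 6003, 4783 and 5403 CPM in the bulk MPC libraries, against 2309.9, 1859.7 and 2350.1 CPM in the bulk myoblast libraries (log2 fold change 1.31 ± 0.30, adjusted p = 0.00205). Among actins and tropomyosins, 4 of 5 were higher. The adult skeletal actin Acta1 reached 18568, 12945 and 15105 CPM in bulk MPC, against 5436, 4298 and 5787 CPM in bulk myoblasts (log2 fold change 1.59 ± 0.27, adjusted p = 0.000259). Actc1 had 8735, 5765 and 6361 CPM in the bulk MPC libraries, against 3343, 2627 and 4244 CPM in the bulk myoblast libraries (log2 fold change 1.03 ± 0.39, adjusted p = 0.0345); this cardiac actin is used by embryonic skeletal muscle, and its adjusted p was 0.0545 with the replicate block and up to 0.12 when 1 library was left out. Tpm3, whose products include both a slow-muscle and a non-muscle tropomyosin, was the member that fell, to 73.1, 104 and 75.6 CPM in bulk MPC, against 279, 284 and 247 CPM in bulk myoblasts (log2 fold change -1.68 ± 0.15, adjusted p = 1.35e-06).

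The myosin heavy chains differed in kind as well as in amount. Of 9 tested heavy chain genes, 5 were higher and 1 lower in bulk MPC. Myh3 had 22738, 17617 and 19515 CPM in the bulk MPC libraries, against 8675, 6344 and 9097 CPM in the bulk myoblast libraries (log2 fold change 1.31 ± 0.29, adjusted p = 0.00159); this is the embryonic isoform. Myh8 had 21718, 14182 and 18706 CPM in the bulk MPC libraries, against 1242, 582 and 1787 CPM in the bulk myoblast libraries (log2 fold change 3.92 ± 0.45, adjusted p = 1.10e-05); this is the neonatal isoform, and its lowest bulk MPC value was several times its highest bulk myoblast value. Myh4 had 4935, 4625 and 6037 CPM in the bulk MPC libraries, against 66.9, 19.1 and 117 CPM in the bulk myoblast libraries (log2 fold change 6.26 ± 0.81, adjusted p = 2.75e-05); Myh4 encodes the adult fast 2B isoform. The groups stood apart by more than an order of magnitude. Myh1 had 14765, 9661 and 17448 CPM in the bulk MPC libraries, against 4352, 2639.8 and 3889 CPM in the bulk myoblast libraries (log2 fold change 1.94 ± 0.38, adjusted p = 0.000713); Myh1 encodes the adult fast 2X isoform.

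The slow isoform Myh7 went the other way, with 159, 94.6 and 108 CPM in the bulk MPC libraries, against 507, 351 and 639 CPM in the bulk myoblast libraries (log2 fold change -2.05 ± 0.32, adjusted p = 0.000122), and all 3 bulk MPC libraries were below all 3 bulk myoblast libraries. Myh13, the extraocular isoform, was higher but scarce, with 2.18, 2.19 and 1.91 CPM in the bulk MPC libraries, against 0.599, 0.286 and 0.605 CPM in the bulk myoblast libraries (log2 fold change 2.04 ± 0.42, adjusted p = 0.000967), and its call ended with length-scaled counts (1.43, adjusted p = 0.153). Myh2 had 35.6, 20.1 and 45.1 CPM in the bulk MPC libraries, against 20.0, 4.90 and 13.2 CPM in the bulk myoblast libraries (log2 fold change 1.39 ± 0.59, adjusted p = 0.0567); the groups did not overlap, and its adjusted p was 0.0261 with the replicate block and 0.0378 without replicate 2. Myh6 (0.32, adjusted p = 0.654) and Myh7b (0.62, adjusted p = 0.198) overlapped between the groups.

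Levels per transcript length (TPM) allow the isoforms to be set against each other. The 9 heavy chain genes summed to 13907, 11521 and 14316 TPM in bulk MPC, against 4831, 3197 and 5020.0 TPM in bulk myoblasts, and to 14526, 11611 and 11530 TPM in differentiated myoblasts. Of this sum, embryonic Myh3 took 34.6%, 37.4% and 30.8% in bulk MPC, against 56.5%, 61.9% and 56.6% in bulk myoblasts, and 57.3% ± 4.29 (SD, n = 3) in differentiated myoblasts. Neonatal Myh8 took 33.4%, 30.5% and 29.9% in bulk MPC, against 8.08%, 5.67% and 11.1% in bulk myoblasts. In differentiated myoblasts its share was 16.4% ± 1.23 (SD, n = 3).

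The bulk MPC sum thus overlapped that of differentiated myoblasts. Fast Myh4 took 7.65%, 9.99% and 9.71% of the heavy chain TPM in bulk MPC, against 0.446%, 0.190% and 0.743% in bulk myoblasts, and 1.79% ± 0.732 (SD, n = 3) in differentiated myoblasts. Slow Myh7 took 0.283% ± 0.0280 in bulk MPC, against 4.79% ± 0.454 in bulk myoblasts (SD, n = 3 each), and 3.20% ± 0.184 in differentiated myoblasts. The shares of Myh1 overlapped, at 24.8% ± 3.84 in bulk MPC and 27.6% ± 2.22 in bulk myoblasts (SD, n = 3 each). With 3 libraries against 3, an exact test of a share cannot go below a two-sided p of 0.10, so none is given. The heavy chain genes are near-identical in long stretches, and reads that fit several of them were divided by the authors' estimation, so the split between isoforms is uncertain.

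**Figure D3:**
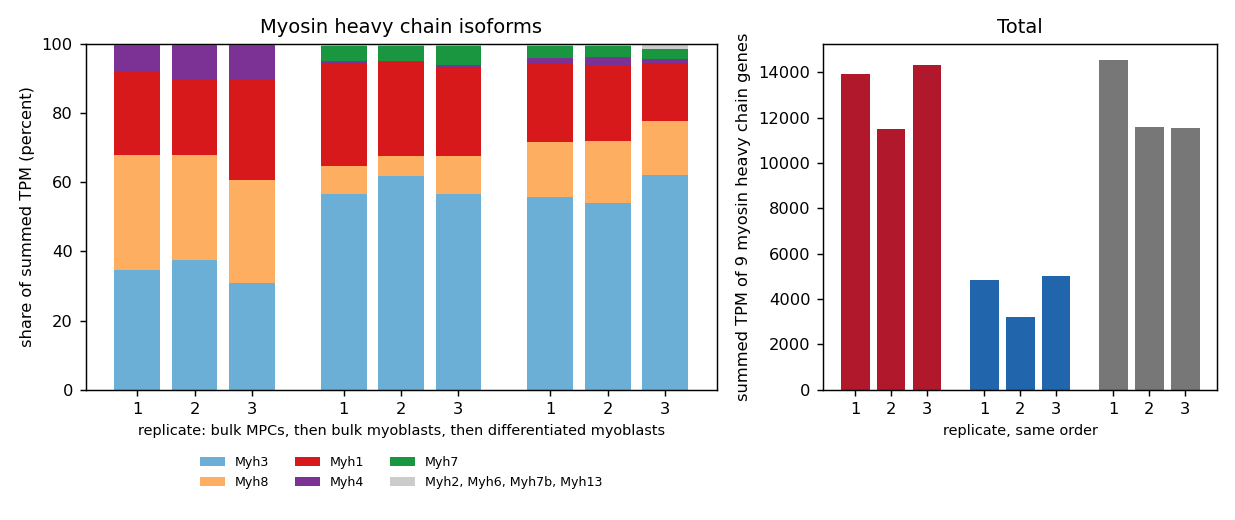
Left, share of the summed TPM of the myosin heavy chain genes (y axis, percent) taken by each isoform in each library of bulk MPC, bulk myoblasts and differentiated myoblasts; right, the summed TPM (y axis) of the same libraries. Bulk MPC carries more Myh8 (31.3%) and Myh4 (9.12%) than bulk myoblasts (8.28% and 0.459%), and its total overlaps that of differentiated myoblasts.

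The troponins, which make the thin filament sensitive to calcium, showed a similar split by fibre type. Of 8 tested genes, 4 were higher and 1 lower. Tnni2 had 929, 848 and 921 CPM in the bulk MPC libraries, against 137, 81.5 and 190.5 CPM in the bulk myoblast libraries (log2 fold change 2.72 ± 0.35, adjusted p = 2.48e-05); this is the fast troponin I. Tnnc2 had 2559, 1991 and 2323 CPM in the bulk MPC libraries, against 476, 288 and 516 CPM in the bulk myoblast libraries (log2 fold change 2.43 ± 0.35, adjusted p = 6.24e-05); this is the fast troponin C. In both, the groups did not overlap. Fast troponin T, Tnnt3, was higher too (1.41, adjusted p = 0.000937), as was slow troponin I, Tnni1 (1.09, adjusted p = 0.00901).

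The slow genes Tnnt1 (-0.21, adjusted p = 0.721) and Tnnc1 (0.06, adjusted p = 0.894), and Tnnt2 of embryonic and cardiac muscle (0.43, adjusted p = 0.268, and adjusted p = 0.0326 in the 6 libraries with the replicate block), did not pass the test and overlapped between groups. Cardiac Tnni3, at or below 1.03 CPM in every library, fell (-2.41, adjusted p = 0.00396). Of the summed TPM of the 6 fast and slow troponin genes, the fast forms Tnnt3, Tnni2 and Tnnc2 took 65.0%, 70.4% and 71.7% in bulk MPC, against 42.5%, 40.1% and 43.5% in bulk myoblasts. In differentiated myoblasts they took 55.0% ± 2.07 (SD, n = 3).

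The region around the start of Myh4 is shown because this gene had the largest rise among the heavy chains. That of Myh3 is shown because it took the largest share of heavy chain TPM in bulk myoblasts, as it also did in bulk MPC. Each is 250 bases before to 50 bases after the annotated start, from RefSeq on GRCm38.p6, 5′ to 3′ along the gene. Capitals mark matches, on either strand unless stated, of the E-box CAGCTG bound by Myod1-family factors, the CArG box of serum response factor, the MEF2 box, and the TATA box TATAAA on the gene's own strand. Myh4 is at chr11:67237562-67237861, plus strand, and Myh3 at chr11:67078050-67078349, plus strand.
Myh4: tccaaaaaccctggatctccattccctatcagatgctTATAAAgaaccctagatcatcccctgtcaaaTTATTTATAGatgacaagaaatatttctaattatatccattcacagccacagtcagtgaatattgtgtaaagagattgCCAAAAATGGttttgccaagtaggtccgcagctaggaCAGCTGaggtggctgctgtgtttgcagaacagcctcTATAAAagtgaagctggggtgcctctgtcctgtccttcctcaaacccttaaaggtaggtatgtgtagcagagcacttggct
Myh3: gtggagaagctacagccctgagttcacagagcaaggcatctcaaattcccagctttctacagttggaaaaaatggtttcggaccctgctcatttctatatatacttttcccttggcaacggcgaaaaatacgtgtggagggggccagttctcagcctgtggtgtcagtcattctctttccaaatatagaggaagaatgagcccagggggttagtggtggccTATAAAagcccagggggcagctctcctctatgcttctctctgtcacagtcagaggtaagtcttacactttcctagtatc
The Myh4 window holds TATAAA starting 213 and 31 bases before the start, a MEF2 box 182, a CArG box 104 and the E-box 67 bases before it. The Myh3 window holds TATAAA 29 bases before the start and none of the other letters searched. Of the 53 RefSeq promoters of sarcomere genes, 20 (37.7%) held CAGCTG, 8 (15.1%) a CArG box and 8 (15.1%) a MEF2 box, against 16.3%, 1.63% and 3.19% of all 32851 promoters of the table, and 16.1%, 1.33% and 1.98% of the 14546 promoters of tested genes. These matches describe letters, and binding was not measured.

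Genes that couple excitation to calcium release were higher as a block. Of 24 tested, 21 were higher and none lower in bulk MPC, with a median of 1.52, and their share of counts was 2.17% to 2.48% in bulk MPC, against 0.732% to 1.08% in bulk myoblasts. Pvalb had 349.8, 337 and 310.2 CPM in the bulk MPC libraries, against 1.17, 0.190 and 0.996 CPM in the bulk myoblast libraries (log2 fold change 8.64 ± 0.69, adjusted p = 7.82e-07); parvalbumin is the calcium buffer of fast fibres. It was nearly absent from bulk myoblasts and abundant in every bulk MPC library. Ryr3 had 122, 82 and 143 CPM in the bulk MPC libraries, against 6.59, 2.81 and 12.3 CPM in the bulk myoblast libraries (log2 fold change 3.98 ± 0.54, adjusted p = 3.82e-05); Ryr3 encodes the ryanodine receptor of young muscle. Casq1 had 2576, 1849.8 and 2487 CPM in the bulk MPC libraries, against 372, 179 and 409 CPM in the bulk myoblast libraries (log2 fold change 2.85 ± 0.39, adjusted p = 4.73e-05); calsequestrin 1 stores calcium in the sarcoplasmic reticulum.

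The calcium pump of fast fibres, Atp2a1, had 7942, 7001 and 8592 CPM in the bulk MPC libraries, against 1560.5, 1053 and 1862 CPM in the bulk myoblast libraries (log2 fold change 2.39 ± 0.48, adjusted p = 0.000816). Ryr1, the main calcium release channel, was higher (1.21, adjusted p = 0.00292), and so was Clcn1, the muscle chloride channel (2.73, adjusted p = 0.000333). The groups did not overlap for any of these 3 genes. Cacnb1 (0.39, adjusted p = 0.131), Stac3 (0.07, adjusted p = 0.77) and sarcolipin, Sln (0.11, adjusted p = 0.852), did not pass the test.

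Muscle energy supply followed. Of 20 tested genes of creatine, glycogen and oxygen supply, 15 were higher and none lower, with a median of 1.61. Ckm had 867, 813 and 813 CPM in the bulk MPC libraries, against 74, 44.2 and 146 CPM in the bulk myoblast libraries (log2 fold change 3.24 ± 0.48, adjusted p = 7.94e-05); this is the cytosolic muscle creatine kinase. Ckmt2 had 294, 192 and 294 CPM in the bulk MPC libraries, against 14.2, 3.38 and 13.9 CPM in the bulk myoblast libraries (log2 fold change 4.62 ± 0.53, adjusted p = 1.13e-05); this is its mitochondrial partner. Pygm had 2368, 1799 and 2429 CPM in the bulk MPC libraries, against 396, 291 and 471 CPM in the bulk myoblast libraries (log2 fold change 2.51 ± 0.28, adjusted p = 8.43e-06); muscle glycogen phosphorylase releases glucose units from glycogen. In all 3 the lowest bulk MPC value was above the highest bulk myoblast value.

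Ampd1, the AMP deaminase of muscle (3.36, adjusted p = 3.43e-06), Cox7a1, a muscle subunit of cytochrome oxidase (4.20, adjusted p = 4.06e-06), and Phkg1, the catalytic subunit of muscle phosphorylase kinase (3.24, adjusted p = 8.00e-06), were higher too. The other 5 members did not pass the test. Mb had 226, 110.5 and 186 CPM in the bulk MPC libraries, against 232, 126 and 205 CPM in the bulk myoblast libraries (log2 fold change -0.11 ± 0.34, adjusted p = 0.797); the groups overlapped for this oxygen store, myoglobin. Brain-type creatine kinase Ckb (-0.80, adjusted p = 0.122), ubiquitous mitochondrial Ckmt1 (-2.27, adjusted p = 0.176), the creatine transporter Slc6a8 (-0.19, adjusted p = 0.272) and the fatty acid carrier Fabp3 (0.46, adjusted p = 0.161, and adjusted p = 0.0135 in the 6 libraries with the replicate block) completed them.

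Glycolytic genes were higher in bulk MPC than in bulk myoblasts. Of 19 tested genes 15 were higher than in bulk myoblasts and none lower, with a median of 1.43, and their share of counts was 3.04% to 3.10% in bulk MPC, against 1.49% to 1.64% in bulk myoblasts and 1.72% to 2.01% in differentiated myoblasts. Pfkp had 695, 487 and 421 CPM in the bulk MPC libraries, against 49.7, 40.7 and 48.1 CPM in the bulk myoblast libraries (log2 fold change 3.53 ± 0.19, adjusted p = 7.74e-08); Pfkp encodes the platelet isoform of phosphofructokinase. Ldha had 3188, 2830.3 and 3091 CPM in the bulk MPC libraries, against 1171, 1089 and 1131 CPM in the bulk myoblast libraries (log2 fold change 1.43 ± 0.13, adjusted p = 2.29e-06); lactate dehydrogenase A makes lactate from pyruvate. Slc16a3 had 199, 236 and 220.5 CPM in the bulk MPC libraries, against 25.1, 10.6 and 31.4 CPM in the bulk myoblast libraries (log2 fold change 3.28 ± 0.49, adjusted p = 8.97e-05); this transporter carries lactate out of the cell. Each of the 3 genes was higher in every bulk MPC library.

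Aldoc, an aldolase (4.54, adjusted p = 3.28e-06), triose phosphate isomerase, Tpi1 (2.70, adjusted p = 1.15e-05), hexokinase 2, Hk2 (2.42, adjusted p = 6.40e-05), and Gapdh (1.30, adjusted p = 4.31e-05) were higher. Hk1 (0.47, adjusted p = 0.0709, and 0.0415 with the replicate block), Pgam1 (0.07, adjusted p = 0.694), Eno1 (0.20, adjusted p = 0.278) and Ldhb (0.85, adjusted p = 0.0938) did not pass the test. Glycolytic genes have many processed pseudogenes, with which reads can be shared.

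All 23 tested nuclear genes of oxidative phosphorylation were higher, with a median of 0.90. Ndufb5 had 160.4, 137 and 145 CPM in the bulk MPC libraries, against 55.7, 54.3 and 59.4 CPM in the bulk myoblast libraries (log2 fold change 1.39 ± 0.10, adjusted p = 3.07e-07); it encodes a subunit of complex I. Cox5b had 297, 240.4 and 302 CPM in the bulk MPC libraries, against 104, 102 and 125 CPM in the bulk myoblast libraries (log2 fold change 1.34 ± 0.14, adjusted p = 4.60e-06); it encodes a subunit of cytochrome oxidase. All 13 mitochondrially encoded protein genes, a list added after the data were seen, were higher as well, with a median of 1.39. mt-Co1 reached 34308, 29419 and 38869.5 CPM in bulk MPC, against 10759, 9683 and 12254 CPM in bulk myoblasts (log2 fold change 1.65 ± 0.18, adjusted p = 6.77e-06). These are the genes behind the mitochondrial shares of counts given above.

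The neuromuscular synapse genes split evenly, with 6 of 13 higher and 6 lower. Subunits of the acetylcholine receptor did so too. Chrne, the adult subunit, had 24.1, 17.5 and 19.7 CPM in the bulk MPC libraries, against 1.60, 0.381 and 2.17 CPM in the bulk myoblast libraries (log2 fold change 3.85 ± 0.54, adjusted p = 5.06e-05). Fetal Chrng (0.93, adjusted p = 0.00527) and Chrnd (1.21, adjusted p = 6.52e-06) were higher, whereas Chrna1 (-0.77, adjusted p = 0.0107) and Chrnb1 (-0.49, adjusted p = 0.00494) were lower. Ache had 559, 426 and 417 CPM in the bulk MPC libraries, against 32.7, 18.4 and 37 CPM in the bulk myoblast libraries (log2 fold change 3.99 ± 0.35, adjusted p = 1.55e-06); acetylcholinesterase ends transmission. Colq, its collagen tail, was higher (3.61, adjusted p = 1.01e-06), as was Etv5, an ETS factor of synaptic nuclei (1.96, adjusted p = 3.78e-06). Rapsn, which anchors the receptors (-1.19, adjusted p = 0.000268), and Lrp4, the agrin receptor (-0.80, adjusted p = 0.00109), were lower. Musk had 252, 166 and 188 CPM in the bulk MPC libraries, against 185, 192 and 147 CPM in the bulk myoblast libraries (log2 fold change 0.21 ± 0.27, adjusted p = 0.52), with overlap.

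The fusion genes did not follow the sarcomere. Of 19 tested, 3 were higher and 9 lower, with a median of -0.26. Mymk had 739.7, 629 and 780.0 CPM in the bulk MPC libraries, against 597, 538 and 772 CPM in the bulk myoblast libraries (log2 fold change 0.17 ± 0.27, adjusted p = 0.601); myomaker is the membrane protein without which myoblasts do not fuse. Myomixer, Mymx, its partner, did not pass either (0.40, adjusted p = 0.456, and adjusted p = 0.0431 in the 6 libraries with the replicate block), and for both genes the groups overlapped. Cdh2 had 100.4, 80.2 and 87.9 CPM in the bulk MPC libraries, against 542, 560.2 and 446 CPM in the bulk myoblast libraries (log2 fold change -2.53 ± 0.35, adjusted p = 4.49e-05); N-cadherin joins myoblasts before fusion. Myof had 103, 152 and 108 CPM in the bulk MPC libraries, against 657, 684 and 508 CPM in the bulk myoblast libraries (log2 fold change -2.35 ± 0.17, adjusted p = 4.85e-07); the ferlin myoferlin is a protein of fusing myoblasts. Kirrel (-2.62, adjusted p = 7.21e-05) and Jam2 (-1.73, adjusted p = 0.000143), both adhesion receptors, were lower, and Tmem182 was higher (1.07, adjusted p = 0.000132).

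Cell cycle genes were lower in bulk MPC almost without exception. Of 34 tested, 33 were lower and none higher, with a median of -1.42, and all 17 S-phase genes and 16 of 17 genes of mitosis were among them. Summed over the list, the level was 665, 1522 and 795 CPM in bulk MPC, against 2797, 2922 and 2399 CPM in bulk myoblasts. Every library of bulk MPC was thus below every bulk myoblast library, and replicate 2 lay between its sister libraries and bulk myoblasts. All 34 genes were higher in replicate 2 than in both of its sister libraries. Without it all 34 were lower and the median was -1.93.

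Rrm2 had 26.4, 60.6 and 24.8 CPM in the bulk MPC libraries, against 343, 406 and 233 CPM in the bulk myoblast libraries (log2 fold change -3.13 ± 0.33, adjusted p = 5.16e-06); ribonucleotide reductase M2 supplies nucleotides in S phase. Mcm4 had 15.3, 33.3 and 18 CPM in the bulk MPC libraries, against 92.7, 98.6 and 76.8 CPM in the bulk myoblast libraries (log2 fold change -2.01 ± 0.29, adjusted p = 7.13e-05); Mcm4 is a part of the replicative helicase. Aurka had 6.69, 16.8 and 9.08 CPM in the bulk MPC libraries, against 38, 40.0 and 33.6 CPM in the bulk myoblast libraries (log2 fold change -1.77 ± 0.25, adjusted p = 6.29e-05); Aurka is a kinase of the spindle poles. Replicate 2 had the highest bulk MPC value of all 3, still below bulk myoblasts. Tpx2, a spindle factor (-1.70, adjusted p = 0.000989), and cyclin B1, Ccnb1 (-1.59, adjusted p = 0.000266), fell as well.

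Mki67 had 49.5, 156 and 68.9 CPM in the bulk MPC libraries, against 191, 172 and 175 CPM in the bulk myoblast libraries (log2 fold change -0.97 ± 0.38, adjusted p = 0.0415); Ki-67 marks cycling cells. This call rested on few libraries. The adjusted p was 0.0691 in a fit of the 6 libraries alone, above the threshold, up to 0.15, when any 1 library other than bulk MPC replicate 2 was left out, and 0.00123 with a log2 fold change of -1.60 without that replicate. Top2a, the topoisomerase of mitotic chromosomes, showed the same pattern, with 66, 198 and 87.7 CPM in the bulk MPC libraries, against 244, 243 and 227 CPM in the bulk myoblast libraries (log2 fold change -1.02 ± 0.39, adjusted p = 0.0359), a log2 fold change of -1.63 without replicate 2, and an adjusted p of up to 0.133 without another library. Aurkb had 8.83, 28.6 and 13.8 CPM in the bulk MPC libraries, against 26.8, 28.5 and 28 CPM in the bulk myoblast libraries (log2 fold change -0.70 ± 0.38, adjusted p = 0.131), and -1.30 with an adjusted p of 0.00574 without replicate 2; it was the member that did not pass.

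The window around the start of Plk1, a mitotic kinase, is shown as an example of a cell cycle promoter, chosen after its match was seen. It is at chr7:122159185-122159484, plus strand, from RefSeq on GRCm38.p6, and capitals mark TTTGAA, the letters of the cell cycle homology region bound by the repressive DREAM complex.
Plk1: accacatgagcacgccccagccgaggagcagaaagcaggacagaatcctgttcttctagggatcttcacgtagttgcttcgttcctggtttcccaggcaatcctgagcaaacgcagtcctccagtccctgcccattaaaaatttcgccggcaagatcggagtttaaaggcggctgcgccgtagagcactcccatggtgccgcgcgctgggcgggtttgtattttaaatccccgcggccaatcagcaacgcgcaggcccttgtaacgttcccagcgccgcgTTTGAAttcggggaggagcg
The match starts 30 bases after the annotated start. Of 29 RefSeq promoters of cell cycle genes, 10 (34.5%) held TTTGAA on either strand, and 6 (20.7%) held the E2F letters TTTCCCGC or TTTGGCGC, against 17.9% and 1.56% of all 32851 promoters and 12.3% and 2.64% of those of tested genes. TTTGAA shares letters with the TCF motif CTTTGA, which was searched separately.

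The D-type cyclins Ccnd1 and Ccnd2 fell, and the CDK inhibitors Cdkn1b, Cdkn1c and Cdkn2d (1.53, adjusted p = 4.03e-06) rose. Ccnd3 was higher (0.44, adjusted p = 0.0326), a call that ended with the replicate block (adjusted p = 0.0505) and when bulk MPC replicate 3, bulk myoblast replicate 1 or bulk myoblast replicate 2 was left out (adjusted p up to 0.148). Ccnd2 had 30.6, 20.5 and 26.1 CPM in the bulk MPC libraries, against 572, 587 and 552 CPM in the bulk myoblast libraries (log2 fold change -4.47 ± 0.30, adjusted p = 2.68e-07); D-type cyclins carry growth signals to the cell cycle. Ccnd1 had 152, 118 and 127 CPM in the bulk MPC libraries, against 599.7, 638 and 406 CPM in the bulk myoblast libraries (log2 fold change -2.05 ± 0.26, adjusted p = 2.46e-05). Both were lower in every bulk MPC library. The CDK inhibitor p27, Cdkn1b, was higher with 57.1, 69.8 and 58.1 CPM in the bulk MPC libraries, against 25.3, 21.2 and 29 CPM in the bulk myoblast libraries (log2 fold change 1.29 ± 0.21, adjusted p = 0.000157), as was Cdkn1c, described above. Cdkn1a had 1987, 1503 and 1807 CPM in the bulk MPC libraries, against 1307, 1111 and 1490.1 CPM in the bulk myoblast libraries (log2 fold change 0.44 ± 0.22, adjusted p = 0.107); the groups did not overlap for this p21 inhibitor, and the difference did not pass, while in the 6 libraries alone the adjusted p was 0.0397, and 0.00997 with the replicate block. The list of D-type cyclins, CDK inhibitors, Rb family genes and p53 targets had 7 of 30 tested genes higher and 11 lower. In its part of cyclins, CDK inhibitors and Rb family genes, the lower members were Ccnd1, Ccnd2 and Rbl1. Among the p53 targets, Bax, a protein that promotes cell death (-1.98, adjusted p = 3.38e-05), and Trp53inp1 (-1.54, adjusted p = 0.00705) fell. Sesn1 (1.54, adjusted p = 1.28e-05) was among those that rose.

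For cAMP, which forskolin raises, 9 of 27 tested genes were higher and 6 lower, a share of higher genes near that of all genes. Of 11 phosphodiesterases and other regulators, which degrade or damp cAMP signals, 5 were higher and none lower. Pde3a had 2.88, 12.2 and 4.14 CPM in the bulk MPC libraries, against 0.566, 0.381 and 0.818 CPM in the bulk myoblast libraries (log2 fold change 3.42 ± 0.61, adjusted p = 0.000372), with replicate 2 highest. Sik1, a CREB-induced kinase that limits CREB, had 528, 396 and 485 CPM in the bulk MPC libraries, against 264, 274 and 288 CPM in the bulk myoblast libraries (log2 fold change 0.77 ± 0.14, adjusted p = 0.000428). Of 16 tested target genes, 4 were higher and 6 lower, and their median of 0.24 turned to -0.11 on the scale of library totals.

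The Nr4a receptors, immediate early genes of cAMP, differed among themselves. Nr4a1 had 84.2, 81 and 101 CPM in the bulk MPC libraries, against 8.02, 7.14 and 15.6 CPM in the bulk myoblast libraries (log2 fold change 3.11 ± 0.40, adjusted p = 2.74e-05), and Nr4a3 had 14.9, 7.0 and 14.1 CPM in the bulk MPC libraries, against 2.20, 1.09 and 2.38 CPM in the bulk myoblast libraries (log2 fold change 2.65 ± 0.36, adjusted p = 3.94e-05). Nr4a2 fell to 0.929, 2.0 and 0.741 CPM in bulk MPC, against 19.4, 31 and 14.7 CPM in bulk myoblasts (log2 fold change -4.12 ± 0.42, adjusted p = 4.16e-06). No library of one group overlapped the other for any of the 3 genes. Fos had 40.8, 52.2 and 43.7 CPM in the bulk MPC libraries, against 7.02, 6.76 and 7.79 CPM in the bulk myoblast libraries (log2 fold change 2.66 ± 0.36, adjusted p = 4.08e-05), and the clock gene Per1, also induced by CREB, was higher (0.97, adjusted p = 0.00048).

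The window of Nr4a2, chosen after its values and matches were seen, is printed because it holds several copies of the core letters of the cAMP response element. It is at chr2:57123954-57124253, minus strand, from RefSeq on GRCm38.p6, printed along the gene, with TGACG on either strand in capitals.
Nr4a2: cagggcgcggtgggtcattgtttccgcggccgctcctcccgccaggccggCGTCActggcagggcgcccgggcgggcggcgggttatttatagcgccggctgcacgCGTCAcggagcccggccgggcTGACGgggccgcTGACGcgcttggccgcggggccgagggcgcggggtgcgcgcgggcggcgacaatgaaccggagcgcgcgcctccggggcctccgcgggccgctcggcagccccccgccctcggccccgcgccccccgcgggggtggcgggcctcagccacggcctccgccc
Its 4 matches start 200, 144, 123 and 111 bases before the start. Of the 34 RefSeq promoters of the cAMP list, 19 (55.9%) held TGACG and 4 (11.8%) the full TGACGTCA, which contains it, against 20.8% and 1.79% of all 32851 promoters and 29.3% and 2.85% of those of tested genes. Whether CREB was bound was not measured. The windows of Lgr6, Dlk1 and Ltbp2 were searched as well, for the TCF letters CTTTGA, the RBPJ letters GTGGGAA and the SMAD letters CAGACA in that order, and none of these letters was found. CTTTGA was in 4 of 20 promoters of the Wnt list (20.0%, against 16.0% of all and 11.9% of those of tested genes), GTGGGAA in 3 of 24 of the Notch list (12.5%, against 6.38% and 6.13%) and CAGACA in 3 of 15 of the TGF-beta list (20.0%, against 21.0% and 16.6%).

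Wnt targets also split, with 5 of 15 tested genes higher and 5 lower and a median of -0.79. CHIR9901 is as the labels write it, and what it inhibits is not given there. Axin2 had 17, 17 and 15.8 CPM in the bulk MPC libraries, against 1.56, 1.05 and 3.09 CPM in the bulk myoblast libraries (log2 fold change 3.11 ± 0.31, adjusted p = 3.24e-06); Axin2 is the feedback gene of beta-catenin signalling. Its 3 bulk MPC values were nearly equal and all above bulk myoblasts. The level was not particular to bulk MPC: differentiated myoblasts had a mean of 27.2 ± 4.64 CPM, against 16.6 ± 0.692 CPM in bulk MPC (SD, n = 3 each). Tnfrsf19 had 62.4, 59.8 and 74.7 CPM in the bulk MPC libraries, against 26.7, 18.5 and 31.3 CPM in the bulk myoblast libraries (log2 fold change 1.36 ± 0.26, adjusted p = 0.000658); this receptor is a beta-catenin target. Znrf3, which removes Wnt receptors, was higher (0.65, adjusted p = 0.000394). Lgr6 had 0.372, 0.191 and 0.124 CPM in the bulk MPC libraries, against 9.25, 23.1 and 1.35 CPM in the bulk myoblast libraries (log2 fold change -5.54 ± 0.91, adjusted p = 0.000196); Lgr6 is a receptor of R-spondins. Apcdd1, a Wnt inhibitor, had 1.49, 7.38 and 1.24 CPM in the bulk MPC libraries, against 22.9, 24.6 and 23.5 CPM in the bulk myoblast libraries (log2 fold change -2.79 ± 0.51, adjusted p = 0.000457). Myc (0.12, adjusted p = 0.563), Nkd1 (0.48, adjusted p = 0.398), Nkd2 (-2.36, adjusted p = 0.0656), Dkk2 (-2.16, adjusted p = 0.129) and Wif1 (-1.37, adjusted p = 0.0621) did not pass. Without bulk MPC replicate 1, bulk myoblast replicate 1 or bulk myoblast replicate 2, 3 targets were called higher.

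Of 22 tested TGF-beta targets, 14 were lower and 4 higher, with a median of -1.13, against 30.1% lower and 28.4% higher over all tested genes. Ccn2 had 1.07, 1.10 and 1.11 CPM in the bulk MPC libraries, against 11.2, 16.5 and 29.5 CPM in the bulk myoblast libraries (log2 fold change -4.12 ± 0.43, adjusted p = 4.96e-06); connective tissue growth factor is a direct target. Ltbp2 had 1.39, 0.858 and 1.17 CPM in the bulk MPC libraries, against 17.7, 41.1 and 15.3 CPM in the bulk myoblast libraries (log2 fold change -4.43 ± 0.65, adjusted p = 7.81e-05); Ltbp2 is a matrix protein of microfibrils. Both were lower in each bulk MPC library.

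The feedback inhibitors of the pathway, Smad7 (-2.46, adjusted p = 1.71e-05) and Skil (-2.17, adjusted p = 1.56e-06), fell, and so did the contractile smooth muscle genes Tagln (-3.41, adjusted p = 8.20e-05) and Acta2 (-2.52, adjusted p = 9.46e-05). The ligand Tgfb3 was higher, with 500.2, 415 and 514 CPM in the bulk MPC libraries, against 173, 143 and 224 CPM in the bulk myoblast libraries (log2 fold change 1.40 ± 0.16, adjusted p = 1.07e-05), as was Bhlhe40 (3.74, adjusted p = 2.90e-05). Without replicate 2 the counts were 17 lower and 4 higher, and the median was -2.60. Tgfbi, Postn, Col1a1 and Timp3 did not pass the test, and each had its highest bulk MPC value in replicate 2, as for Timp3 with 1.81, 32.3 and 3.71 CPM in the bulk MPC libraries, against 11.1, 23.8 and 53.6 CPM in the bulk myoblast libraries.

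Of the BMP and myostatin axis, 4 of 18 tested genes were higher and 8 lower. Mstn had 267, 113 and 199 CPM in the bulk MPC libraries, against 51.7, 39 and 43 CPM in the bulk myoblast libraries (log2 fold change 2.11 ± 0.38, adjusted p = 0.000353); myostatin restrains muscle growth. Fst had 8.22, 6.57 and 8.52 CPM in the bulk MPC libraries, against 47.1, 45.9 and 64.6 CPM in the bulk myoblast libraries (log2 fold change -2.76 ± 0.24, adjusted p = 1.32e-06); follistatin is its antagonist. The groups did not overlap, and the pair moved in opposite directions. Grem1, an antagonist of BMPs, was lower (-4.55, adjusted p = 0.00352), with a log2 fold change of -10.25 without replicate 2, which held nearly all of its bulk MPC counts. Inhba, the activin subunit (-2.44, adjusted p = 0.00292), was lower and the receptor Acvr2b (1.22, adjusted p = 0.00256) higher.

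Among Notch genes, 5 of 21 were higher and 7 lower, close to the shares of all genes, and 10 were lower without replicate 2. Dlk1 had 387, 275 and 166 CPM in the bulk MPC libraries, against 5.99, 7.23 and 5.58 CPM in the bulk myoblast libraries (log2 fold change 5.46 ± 0.60, adjusted p = 7.85e-06); Dlk1 encodes a non-canonical Notch ligand and is imprinted. It stood far above bulk myoblasts in each library. Hey1 had 14, 21.2 and 11.2 CPM in the bulk MPC libraries, against 5.99, 7.0 and 8.96 CPM in the bulk myoblast libraries (log2 fold change 1.08 ± 0.27, adjusted p = 0.0041), and Nrarp had 3.25, 6.53 and 3.09 CPM in the bulk MPC libraries, against 1.46, 0.761 and 1.96 CPM in the bulk myoblast libraries (log2 fold change 1.60 ± 0.45, adjusted p = 0.00759); both are Notch target genes. Notch2 had 37.3, 69.9 and 53.7 CPM in the bulk MPC libraries, against 119, 126 and 105 CPM in the bulk myoblast libraries (log2 fold change -1.12 ± 0.22, adjusted p = 0.000638); Notch2 encodes a receptor, and Lfng, which modifies Notch receptors, was lower too (-2.31, adjusted p = 0.00323). Heyl had 41.4, 93.7 and 49.6 CPM in the bulk MPC libraries, against 26.5, 10.9 and 74.1 CPM in the bulk myoblast libraries (log2 fold change 0.73 ± 0.61, adjusted p = 0.324), with overlap. Hes5 had no count in any of the 6 libraries.

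Of the imprinted and fetal growth genes, 8 of 22 were higher and 6 lower, near the shares of all genes (28.4% and 30.1%). The list is thus not set apart, and its median of 0.20 was -0.17 on the scale of library totals. Single genes changed strongly, and of those described here Rian, Rtl1 and Peg10 are not in the list. The non-coding RNAs Meg3 and Rian lie with Dlk1 and Rtl1 in an imprinted cluster on chromosome 12. Meg3 had 3951, 3302 and 3025 CPM in the bulk MPC libraries, against 142, 184 and 459 CPM in the bulk myoblast libraries (log2 fold change 3.71 ± 0.84, adjusted p = 0.00207). Rian had 1731, 1243 and 1044 CPM in the bulk MPC libraries, against 67.2, 76.7 and 119 CPM in the bulk myoblast libraries (log2 fold change 3.93 ± 0.82, adjusted p = 0.00116). Rtl1 had 78, 20.8 and 13.3 CPM in the bulk MPC libraries, against 0.300, 0.381 and 0.533 CPM in the bulk myoblast libraries (log2 fold change 6.51 ± 1.10, adjusted p = 0.000233); Rtl1 derives from a retrotransposon, and its antisense transcripts could share reads with it, since the use of strand in counting is not given in the sources used here. All 4 genes were higher in every bulk MPC library.

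Igf2 had 9565, 9065 and 9254 CPM in the bulk MPC libraries, against 4239.6, 3341 and 4378 CPM in the bulk myoblast libraries (log2 fold change 1.22 ± 0.44, adjusted p = 0.0279); Igf2 is a fetal growth factor, and the groups did not overlap. Its call ended when any 1 library other than bulk MPC replicate 2 was left out, with adjusted p up to 0.0914. H19 had 20320.5, 16584 and 19531 CPM in the bulk MPC libraries, against 16305, 15398 and 16765 CPM in the bulk myoblast libraries (log2 fold change 0.22 ± 0.19, adjusted p = 0.34); this neighbour of Igf2 did not pass the test. Grb10 had 1717, 1610.2 and 2072 CPM in the bulk MPC libraries, against 245, 102 and 261 CPM in the bulk myoblast libraries (log2 fold change 3.15 ± 0.40, adjusted p = 2.22e-05); Grb10 dampens insulin receptor signals. Peg10 had 3591, 1992 and 1955 CPM in the bulk MPC libraries, against 315, 289.9 and 310.3 CPM in the bulk myoblast libraries (log2 fold change 3.04 ± 0.29, adjusted p = 2.84e-06), another retrotransposon-derived imprinted gene. Igfbp5 was higher as well (1.74, adjusted p = 0.00075).

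Not all imprinted genes rose. Mest had 106, 239 and 138 CPM in the bulk MPC libraries, against 845, 865 and 1380.4 CPM in the bulk myoblast libraries (log2 fold change -2.68 ± 0.36, adjusted p = 3.48e-05), and Peg3 had 1916, 1511 and 1932 CPM in the bulk MPC libraries, against 1649, 1857 and 1734 CPM in the bulk myoblast libraries (log2 fold change 0.03 ± 0.17, adjusted p = 0.881). Mest was lower without overlap, and Peg3 overlapped. The chromatin proteins Hmga2 and Hmga1, of embryonic and proliferating cells, both fell: Hmga2 had 3.62, 8.67 and 2.41 CPM in the bulk MPC libraries, against 313, 359 and 206 CPM in the bulk myoblast libraries (log2 fold change -5.88 ± 0.50, adjusted p = 1.23e-06), and Hmga1 had 66.9, 101 and 97.4 CPM in the bulk MPC libraries, against 599.6, 673 and 456 CPM in the bulk myoblast libraries (log2 fold change -2.70 ± 0.24, adjusted p = 1.42e-06).

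Of 12 tested inhibitors of the Myod1 family, 6 were lower and 3 higher in bulk MPC, and of their E protein partners 2 of 3 were lower and 1 higher. Id3 had 58.1, 52.4 and 38.7 CPM in the bulk MPC libraries, against 234, 274 and 201 CPM in the bulk myoblast libraries (log2 fold change -2.25 ± 0.32, adjusted p = 6.43e-05); Id proteins sequester the partners of Myod1. Id2 (-2.81, adjusted p = 4.34e-05), Id1 (-1.73, adjusted p = 0.00294) and Snai2 (-2.88, adjusted p = 2.88e-06), a repressor at Myod1 targets, fell too. Msc had 2.60, 9.48 and 4.45 CPM in the bulk MPC libraries, against 0.0333, 0 and 0.107 CPM in the bulk myoblast libraries (log2 fold change 6.63 ± 1.18, adjusted p = 0.000561); musculin is a repressor of the same family and was nearly absent from bulk myoblasts. Bhlhe40, another repressor, had 264, 304 and 242 CPM in the bulk MPC libraries, against 18.1, 8.95 and 33.5 CPM in the bulk myoblast libraries (log2 fold change 3.74 ± 0.49, adjusted p = 2.90e-05). Every bulk MPC library was above every bulk myoblast library for both repressors. Id4 (-0.78, adjusted p = 0.26), Snai1 (-0.47, adjusted p = 0.31) and Mdfi (-0.36, adjusted p = 0.507) did not pass.

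Pluripotency genes gave no common direction. Of 5 tested, Lin28a (log2 fold change 3.17) and Tfcp2l1 (log2 fold change 1.84) were higher, Klf2 (-3.65, adjusted p = 1.36e-06) and Klf4 (-1.56, adjusted p = 0.00426) lower, and Esrrb did not pass (0.83, adjusted p = 0.194). Pou5f1 and Nanog were too low to be tested, and Sox2, Zfp42 and Dppa3 had no count in any of the 6 libraries. Of 24 tested cholesterol genes, 5 were higher and 10 lower, with Insig1 (-1.16, adjusted p = 0.000684) among the lower and Ebp (0.99, adjusted p = 9.32e-05) and Hmgcs1 (0.55, adjusted p = 0.00454) among the higher. On the scale of library totals 1 was higher and 14 lower. Of 13 tested interferon-stimulated genes, 3 were higher and 1 lower, with a median of -0.39. Bst2 had the largest rise, with 9.57, 7.43 and 11.5 CPM in the bulk MPC libraries, against 3.83, 3.05 and 3.56 CPM in the bulk myoblast libraries (log2 fold change 1.45 ± 0.32, adjusted p = 0.00165). Mx2 was the lower member (-3.19, adjusted p = 0.00866).

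Extracellular matrix was where replicate 2 weighed most. Of 33 tested basement membrane and collagen genes, 9 were higher and 14 lower, and without replicate 2 the counts were 6 and 18. The list summed to 2847, 7224 and 3816 CPM in bulk MPC, against 9205, 8701 and 9423 CPM in bulk myoblasts. Replicate 2 thus lay close to bulk myoblasts, and 26 of 33 genes were higher in it than in both sister libraries.

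Some matrix genes were low in all 3 bulk MPC libraries. Fn1 had 76.9, 301 and 90.2 CPM in the bulk MPC libraries, against 1227, 1139.9 and 1116 CPM in the bulk myoblast libraries (log2 fold change -2.90 ± 0.49, adjusted p = 0.000237); fibronectin forms a provisional matrix. Col8a1 had 0.279, 2.62 and 0.679 CPM in the bulk MPC libraries, against 89.9, 84.2 and 83 CPM in the bulk myoblast libraries (log2 fold change -6.13 ± 0.78, adjusted p = 2.44e-05); it encodes a short-chain collagen. Col5a2 had 13.2, 59.5 and 24.2 CPM in the bulk MPC libraries, against 551, 461 and 410.5 CPM in the bulk myoblast libraries (log2 fold change -3.88 ± 0.48, adjusted p = 1.84e-05); collagen V nucleates collagen fibrils. All bulk MPC values were below all bulk myoblast values, with replicate 2 the highest of the 3. Col1a2 fell to 2.04, 2.0 and 2.10 CPM in bulk MPC, against 22.7, 40.9 and 92.3 CPM in bulk myoblasts (log2 fold change -4.66 ± 1.01, adjusted p = 0.00145), with near-equal bulk MPC libraries.

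In other matrix genes the size or the direction of the change depended on replicate 2. Col3a1 had 71.5, 658 and 125 CPM in the bulk MPC libraries, against 632, 735 and 707 CPM in the bulk myoblast libraries (log2 fold change -1.28 ± 0.62, adjusted p = 0.0944), with a log2 fold change of -2.82 and an adjusted p of 0.000146 without replicate 2 and an adjusted p of 0.0425 with the replicate block. Col4a1 had 94.6, 567 and 193 CPM in the bulk MPC libraries, against 809.5, 748 and 869 CPM in the bulk myoblast libraries (log2 fold change -1.50 ± 0.45, adjusted p = 0.0117), and -2.49 without replicate 2, but its call ended in the 6 libraries alone (adjusted p = 0.0624) and without bulk MPC replicate 3 (adjusted p = 0.0512); collagen IV is the network of the basement membrane. Lama4 had 1.07, 30.7 and 3.09 CPM in the bulk MPC libraries, against 0.366, 0.286 and 0.747 CPM in the bulk myoblast libraries (log2 fold change 4.60 ± 1.08, adjusted p = 0.00259), and 2.10 without it; Lama4 is a laminin chain. Col6a6 had 2.83, 68.3 and 9.26 CPM in the bulk MPC libraries, against 0.399, 0 and 1.35 CPM in the bulk myoblast libraries (log2 fold change 5.43 ± 1.17, adjusted p = 0.00202), and 3.25 without it. Col6a3 had 0.929, 321 and 7.72 CPM in the bulk MPC libraries, against 6.32, 16.9 and 52.8 CPM in the bulk myoblast libraries (log2 fold change 2.12 ± 1.47, adjusted p = 0.232), and -2.58 without it. In each of these 5 genes replicate 2 was above both of its sisters.

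Markers of other cell types were examined beside the matrix genes. Of 16 fibroblast and fibro-adipogenic progenitor markers, 12 could be tested and 3 were higher and 3 lower, with a median of 0.15; without replicate 2 the counts were 2 higher and 5 lower, with a median of -0.68. Their summed level, which is set by the most abundant members, was 221, 254 and 307 CPM in bulk MPC, against 182, 167 and 179 CPM in bulk myoblasts. The members went otherwise. Their median log2 distance from the other bulk MPC libraries was -0.97, 1.67 and -0.41 in replicates 1 to 3. Pdgfra had 0.651, 12.4 and 0.556 CPM in the bulk MPC libraries, against 1.46, 2.95 and 2.38 CPM in the bulk myoblast libraries (log2 fold change 1.02 ± 0.83, adjusted p = 0.31); Pdgfra marks fibro-adipogenic progenitors. Dcn had 0.0465, 31.3 and 0.185 CPM in the bulk MPC libraries, against 0.133, 0 and 0.249 CPM in the bulk myoblast libraries (log2 fold change 6.22 ± 1.90, adjusted p = 0.0124); decorin is a proteoglycan of fibroblasts. Both were high in replicate 2 alone, and without it the log2 fold changes were -1.89 and -0.31. The adjusted p of Dcn was 0.0587 with the replicate block. Osr2 (2.46, adjusted p = 0.00377) and Cxcl14 (4.42, adjusted p = 0.00629) were the other higher members. Mfap5 (-6.92, adjusted p = 0.00135), Ly6a (-2.90, adjusted p = 0.0175) and Pi16 (-1.21, adjusted p = 0.0482) were the lower members. The call of Ly6a ended without bulk MPC replicate 1 or 3 (adjusted p up to 0.065). The part of such cells in the matrix results was not tested.

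Pericyte and smooth muscle markers had 4 of 12 higher and 3 lower, and the sum of their CPM is mostly Des, a muscle gene too. The higher members were Des, Kcnj8 (6.12, adjusted p = 0.00589), Abcc9 (1.37, adjusted p = 0.000233) and Mcam (0.90, adjusted p = 0.00565). The call of Mcam ended with library totals (adjusted p = 0.0669). The lower members were Rgs5, Acta2 and Tagln. Pdgfrb had 4.18, 68.8 and 12.9 CPM in the bulk MPC libraries, against 3.79, 5.52 and 16.1 CPM in the bulk myoblast libraries (log2 fold change 1.75 ± 0.87, adjusted p = 0.101), with the highest value in replicate 2 and -0.02 without it. Rgs5 had 9.15, 10.8 and 1.30 CPM in the bulk MPC libraries, against 132, 219 and 113 CPM in the bulk myoblast libraries (log2 fold change -4.43 ± 0.93, adjusted p = 0.00123); this pericyte marker was abundant in bulk myoblasts. Of tenocyte markers, Tnc (-3.11, adjusted p = 5.11e-05) and Scx (-1.23, adjusted p = 0.000173) were lower and Thbs4 (3.72, adjusted p = 0.000869) higher, and the list summed to 292, 480 and 367 CPM in bulk MPC, against 900, 757 and 833 CPM in bulk myoblasts.

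Of 13 macrophage and leukocyte markers 4 could be tested, and C1qa, C1qb, C1qc and Tyrobp had no count in any of the 6 libraries. The list summed to 8.72 to 14.4 CPM in bulk MPC and to 5.39 to 7.04 CPM in bulk myoblasts. Of the 4 tested members, 1 was higher and 1 lower, and the lower was Cd14 (-3.06, adjusted p = 0.0222). Fcer1g had 7.62, 3.05 and 6.24 CPM in the bulk MPC libraries, against 0.166, 0.238 and 0.142 CPM in the bulk myoblast libraries (log2 fold change 4.94 ± 0.44, adjusted p = 1.70e-06) and was the 1 tested macrophage marker that rose; it encodes an immunoreceptor subunit. Endothelial markers summed to 14.6 to 18.3 CPM in bulk MPC and to 9.52 to 14.5 CPM in bulk myoblasts, with 2 of 6 tested higher. That count was 0 without bulk MPC replicate 3 or bulk myoblast replicate 2. Outside these lists, P-selectin of vessels and platelets, Selp, had 0.139, 0.0476 and 0 CPM in the bulk MPC libraries, against 26.1, 54.7 and 4.94 CPM in the bulk myoblast libraries, and the basophil protease gene Mcpt8 had 0.139, 0.143 and 0 CPM in the bulk MPC libraries, against 34.5, 32.5 and 31.3 CPM in the bulk myoblast libraries.

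Of Schwann cell and neural crest markers, 2 of 7 tested were higher and 2 lower. Foxd3 had 6.41, 2.38 and 11.2 CPM in the bulk MPC libraries, against 0.0333, 0.143 and 0.0356 CPM in the bulk myoblast libraries (log2 fold change 6.57 ± 0.78, adjusted p = 3.13e-05); Foxd3 is a factor of neural crest and stem cells, and Sox10 and S100b were too low to be tested. Mbp (-2.11, adjusted p = 0.00483, and adjusted p = 0.104 with length-scaled counts) and Prx (-1.29, adjusted p = 0.000396), of myelin, fell, and Pmp22 rose (0.94, adjusted p = 0.00917), a call that ended without replicate 2, at 0.0507. Among adipocyte markers, Lpl was higher and Cebpa lower. Lpl had 91.2, 170.1 and 127 CPM in the bulk MPC libraries, against 17.2, 13.3 and 17.7 CPM in the bulk myoblast libraries (log2 fold change 3.00 ± 0.26, adjusted p = 1.23e-06); lipoprotein lipase is made by muscle too, and Cebpa fell (-3.23, adjusted p = 0.000113), while Adipoq, Plin1 and Fabp4 were too low to be tested.

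**Figure D4:**
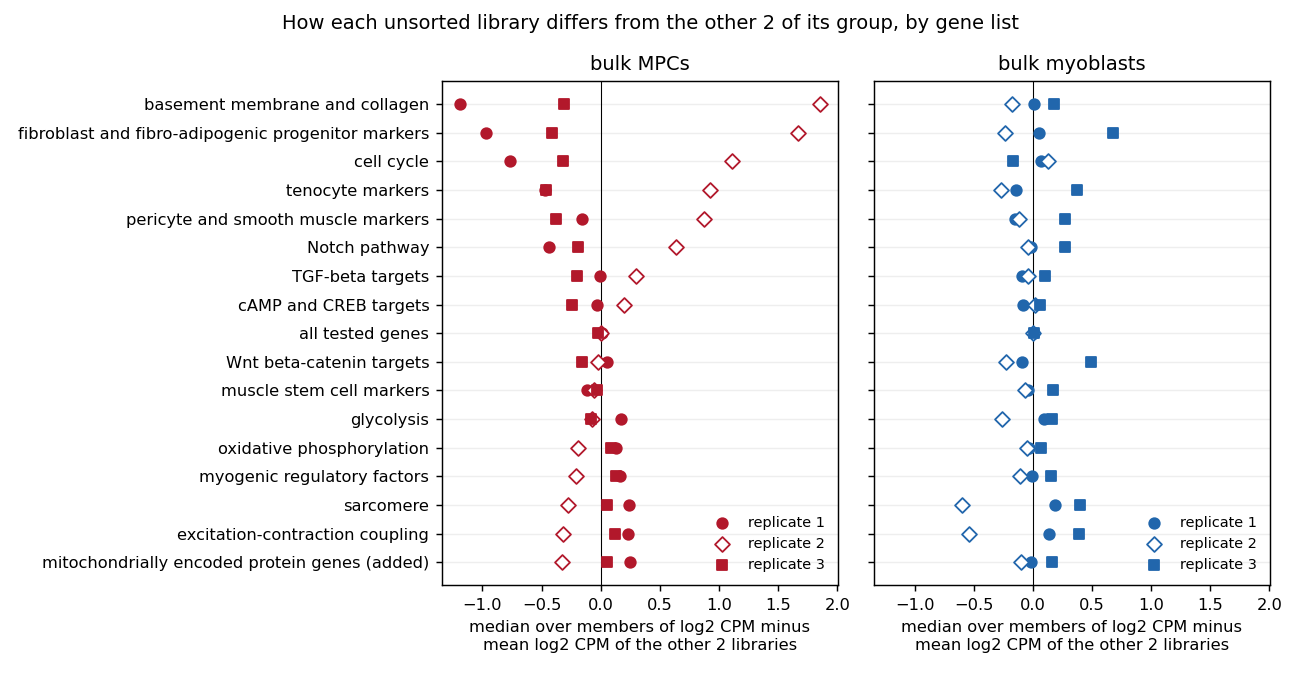
Level of selected gene lists, all tested genes and the mitochondrially encoded protein genes (rows) in each of the 6 libraries. It is given on the x axis as the middle value, across tested members, of how far log2 CPM lies from the average of the other 2 replicates. Not all gene lists are drawn. Replicate 2 of bulk MPC stands apart with 1.85 for basement membrane and collagen, 1.67 for fibroblast markers and 1.11 for cell cycle genes, and it is at -0.28 for the sarcomere.

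Over all genes, those that separated bulk MPC replicate 2 most from its sisters, at 50 CPM or more in the higher, were named by rule and not tested. The highest in replicate 2 included Col1a1, with 0.0465, 89 and 2.22 CPM in bulk MPC, against 7.49, 21.7 and 112 CPM in bulk myoblasts. Bgn, the proteoglycan biglycan, had 8.50, 101 and 19.3 CPM in bulk MPC, against 390.0, 462 and 527 CPM in bulk myoblasts. Nid1, a linker of the basement membrane, had 16.5, 137 and 25.1 CPM in bulk MPC, against 274, 297 and 217 CPM in bulk myoblasts. For Bgn and Nid1, replicate 2 was high for its group and still below bulk myoblasts.

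Of the 12 genes highest in replicate 2, 8 encode collagens, laminin or nidogen, and the others are Mgp, Loxl2, Pdgfrb and Bgn, also matrix or stromal genes. Among the genes lowest in it were Mstn, Gdf11 and Ky, a muscle protein with 164, 58.2 and 139 CPM in bulk MPC, against 13.7, 2.33 and 30.2 CPM in bulk myoblasts. Bulk myoblast replicate 2 was also the lowest of its group for the sarcomere list, at -0.60 against its sisters, and for energy metabolism, at -0.72. The cell cycle list stood at 1.11 in bulk MPC replicate 2 and at 0.13 in bulk myoblast replicate 2.

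The 12 genes with the largest rise, at 20 CPM or more in the higher group, included several not in the lists. Atp1b4 had 194, 118 and 126 CPM in the bulk MPC libraries, against 0.233, 0.0952 and 0.533 CPM in the bulk myoblast libraries (log2 fold change 8.90 ± 0.58, adjusted p = 6.05e-07); this protein of the Na,K-ATPase beta family is found in muscle. Slc38a4 had 159, 132 and 19.5 CPM in the bulk MPC libraries, against 0.300, 0.286 and 0.249 CPM in the bulk myoblast libraries (log2 fold change 8.51 ± 1.21, adjusted p = 5.85e-05); Slc38a4 is an imprinted amino acid transporter, and replicate 3 had several times less of it than replicates 1 and 2. Edn3 had 47.8, 46.3 and 48.7 CPM in the bulk MPC libraries, against 0.533, 0.523 and 0.427 CPM in the bulk myoblast libraries (log2 fold change 6.58 ± 0.18, adjusted p = 1.64e-10); endothelin 3 is a secreted peptide, and its 3 bulk MPC libraries were nearly equal. All 3 genes were under 1 CPM in bulk myoblasts.

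Gpc3, a glypican of fetal growth control, had 35.4, 68.3 and 42 CPM in the bulk MPC libraries, against 0.266, 0.143 and 0.889 CPM in the bulk myoblast libraries (log2 fold change 6.73 ± 0.46, adjusted p = 3.07e-07). Tgm2 had 338, 476 and 554 CPM in the bulk MPC libraries, against 2.96, 1.67 and 11.2 CPM in the bulk myoblast libraries (log2 fold change 6.41 ± 0.72, adjusted p = 8.91e-06); tissue transglutaminase cross-links proteins. Lingo3 (7.58, adjusted p = 1.15e-06) and Fbp2, the muscle fructose bisphosphatase (6.62, adjusted p = 1.78e-05), completed the 12 with Pvalb, Mybpc2, Myh4, Myoz1 and Rtl1. No library of bulk MPC was as low as bulk myoblasts for any of the 12.

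The 12 largest falls by the same rule were genes with few or no counts in bulk MPC. Cdh18, a cadherin, had 0, 0 and 0 CPM in the bulk MPC libraries, against 21.3, 30.6 and 15.8 CPM in the bulk myoblast libraries. With no count in bulk MPC it is at least 442-fold lower with a floor of 3 counts over the group. Dynap had 0.0465, 0 and 0 CPM in bulk MPC, against 125, 181 and 54.9 CPM in bulk myoblasts, and its ratio of bulk myoblasts over bulk MPC was 6749 (95% counting interval 1211 to 266601). Cxcl12, the chemokine that binds Cxcr4, had 0.0465, 0 and 0 CPM in bulk MPC, against 101, 139 and 53.5 CPM in bulk myoblasts, a ratio in the same direction of 5523 (95% counting interval 991 to 218160.0). Intervals cover counting error only.

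Dock8, an exchange factor of Cdc42, had 0, 0 and 0.0618 CPM in bulk MPC, against 50.6, 46.3 and 40.2 CPM in bulk myoblasts. Dpp6 had 0.0465, 0.0476 and 0.124 CPM in the bulk MPC libraries, against 37.7, 33.2 and 36.3 CPM in the bulk myoblast libraries (log2 fold change -8.92 ± 0.45, adjusted p = 4.10e-08); it is a partner of potassium channels. Epha1 had 0.651, 0.476 and 0.124 CPM in the bulk MPC libraries, against 97.4, 156 and 96 CPM in the bulk myoblast libraries (log2 fold change -8.04 ± 0.56, adjusted p = 3.28e-07); this is an ephrin receptor. Srpx2 had 0, 0.858 and 0 CPM in the bulk MPC libraries, against 86, 99.9 and 75.8 CPM in the bulk myoblast libraries (log2 fold change -8.14 ± 0.60, adjusted p = 4.83e-07). All of its bulk MPC counts were in replicate 2, so there is none without that library. Megf6, the granzyme Gzme, Mcpt8, Selp and the kinase Ptk2b (-8.00) completed the 12 largest falls.

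Vim and Spp1, both abundant in bulk myoblasts, fell as well. Vim had 816, 868 and 648 CPM in the bulk MPC libraries, against 3672, 4206 and 2925 CPM in the bulk myoblast libraries (log2 fold change -2.21 ± 0.18, adjusted p = 8.57e-07); vimentin is the intermediate filament of undifferentiated cells. Spp1 had 307, 297 and 126 CPM in the bulk MPC libraries, against 4834, 6197 and 4107 CPM in the bulk myoblast libraries (log2 fold change -4.38 ± 0.75, adjusted p = 0.000254); osteopontin is a secreted protein of activated myoblasts. In both the groups stood apart.

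Bulk MPC was also set against the myoblasts differentiated for 3 days, with which this comparison shares its bulk MPC libraries. At an adjusted p under 0.05, 6811 of the 15533 genes (43.8%) differed, 3792 (24.4%) of them higher and 3019 (19.4%) lower in bulk MPC. For the sarcomere list 10 of 58 were higher and 9 lower, a median of -0.06, and for excitation-contraction coupling 5 of 24 were higher and 5 lower. Neither list leaned one way. Myh4 was at 4935, 4625 and 6037 CPM in bulk MPC, against 783, 1107 and 499.8 CPM in differentiated myoblasts (2.71 ± 0.69, adjusted p = 0.00627), and slow Myh7 was lower (-3.18 ± 0.33, adjusted p = 1.17e-05).

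Myf6 had 271, 174 and 163 CPM in bulk MPC, against 39.4, 31.2 and 33.9 CPM in differentiated myoblasts (2.54 ± 0.38, adjusted p = 0.000177). The cycling genes went the other way from the comparison with bulk myoblasts, with 33 of 34 higher in bulk MPC than in differentiated myoblasts and a median of 3.00. Mki67 had 49.5, 156 and 68.9 CPM in bulk MPC, against 1.08, 3.80 and 3.02 CPM in differentiated myoblasts (5.13 ± 0.48, adjusted p = 5.44e-06). Bulk MPC thus lay between growing and differentiated myoblasts for cycling genes.

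Pax7 had 66.1, 136 and 56.9 CPM in bulk MPC, against 25.3, 64.7 and 45.7 CPM in differentiated myoblasts (0.94 ± 0.34, adjusted p = 0.0372), with 1 differentiated library above the lowest bulk MPC library. Glycolysis was higher in bulk MPC for 15 of 19 genes and lower for none, and cholesterol synthesis lower for 21 of 24 and higher for none, with a median of -1.50. Insig1, the brake on cholesterol synthesis, had 33.6, 20.3 and 18.1 CPM in bulk MPC, against 173, 168 and 142 CPM in differentiated myoblasts (-2.74 ± 0.23, adjusted p = 2.83e-06). Fst had 8.22, 6.57 and 8.52 CPM in bulk MPC, against 403, 259 and 356 CPM in differentiated myoblasts (-5.45 ± 0.26, adjusted p = 3.59e-08), and Cdh2 was lower too (-1.89 ± 0.34, adjusted p = 0.000674). Dlk1 was higher, with 387, 275 and 166 CPM in bulk MPC, against 2.30, 0.112 and 3.02 CPM in differentiated myoblasts (7.24 ± 0.68, adjusted p = 5.81e-06).

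The unsorted difference was not that of the sorted cells for every gene. A direct test of the unsorted minus the sorted effect called 5755 genes (37.1%), 2606 (16.8%) higher and 3149 (20.3%) lower. Sorted libraries were made with another RNA kit, and GFP+ myoblasts had 5 to 6 passages, so the sort, the kit and the passages cannot be told apart. For Pax7 the log2 fold change was -2.73 in unsorted and -0.24 in sorted cells (difference -2.50 ± 0.47, adjusted p = 0.00131). For Axin2 it was 3.11 in unsorted and 4.72 in sorted cells (difference -1.61 ± 0.48, adjusted p = 0.0181). Both differences passed the test.

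For Mki67 the log2 fold change was -0.97 in unsorted and 1.34 in sorted cells (difference -2.32 ± 0.54, adjusted p = 0.00472), and its mean was 91.3 CPM in bulk MPC and 179.5 CPM in bulk myoblasts, and 792 CPM in GFP+ MPC and 313 CPM in GFP+ myoblasts (n = 3 each). The sign of the effect thus differed between unsorted and sorted cells. For Cdkn1a it was 0.44 in unsorted and -1.14 in sorted cells (difference 1.58 ± 0.32, adjusted p = 0.00188), and the unsorted effect alone did not pass the test. For Myod1 it was -2.17 in unsorted and -2.23 in sorted cells (difference 0.06 ± 0.38, adjusted p = 0.918). Neither this difference nor those of Myf6 (1.25 ± 0.65, adjusted p = 0.148), Myh3 (-0.55 ± 0.40, adjusted p = 0.301), Ckm (-1.29 ± 0.78, adjusted p = 0.214), Mef2c (-0.64 ± 0.38, adjusted p = 0.207), Myog (-0.35 ± 0.60, adjusted p = 0.681) and Myf5 (-0.59 ± 0.37, adjusted p = 0.232) passed the test, which does not show that the effects were equal. Over the alternatives the lowest adjusted p was 0.0331 for Myf5 and 0.0378 for Mef2c, both past the threshold, and it was 0.0645 or more for the other 5.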

How the data were processed

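RNA-seq libraries of mouse muscle cultures were analysed from the authors' deposited transcript tables. Per the submitters' processing notes, reads were trimmed with fastp 0.20.0 and assigned with kallisto 0.46.1 on GRCm39, which gave the estimated counts and the TPM (scaled by transcript length and library) per transcript that the authors deposited. The use of strand in counting is not given in the sources used here. Gene names came from GENCODE M21 (names only): 120739 of 121798 transcripts matched, and the 1059 others, 0.583% to 1.05% of the counts of the 6 libraries, were left out. Estimated counts were summed per gene and rounded. Genes were kept by filterByExpr (minimum count 10, minimum total 15), which left 15533.

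Counts were scaled by TMM and tested with edgeR 4.0.16 (quasi-likelihood, R 4.3.3) in 1 fit of the 15 libraries of the 5 groups with 3 replicates, without a replicate block, at a Benjamini-Hochberg threshold of 0.05. The labels call the libraries of a group biological replicates without tying them to animals, so p-values measure the spread between these libraries. No 2 replicates agreed within counting noise. Simulated data for bulk MPC against bulk myoblasts held 14735 tested genes and 200 changed genes. The test recovered 72% of genes changed by a log2 of 1 either way, 94% of those raised and 90% of those lowered by 2. It made 6 false calls. Deviations from the group means of same-numbered bulk MPC and bulk myoblast libraries correlated at 0.13, 0.13 and 0.16, and of differently numbered ones at -0.02 or less. Deviations within a group cancel out, so the lower values of the differently numbered ones are no separate evidence. The numbers were taken as pairs on the weak positive values, and the main fit does not use them. The pairing comes from this check of the data and not from the labels. In the fit of the 15 libraries the replicate block ties the numbers across all 5 groups. Same-numbered libraries of the other pairs of groups correlated at -0.17 to 0.21. The check thus gave no common pairing over the 5 groups, and calls with that block carry this limit.

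Alternatives were RLE size factors, library totals, DESeq2 1.42.0, no filter on low counts, the 6 libraries alone, the replicate block, length-scaled counts and leaving out each library. The comparison, the 29 gene lists and the tests were chosen with earlier results of these data known. Named were a set list of genes, up to 4 called members of each list in its main direction and 2 in the other at 5 CPM or more, all members that did not pass where these were 5 or fewer, and the 12 largest changes each way at 20 CPM or more. These were chosen after their values were seen: Acta1, Acta2, Actc1, Atp2a1, Calcr, Ccnb1, Ccnd3, Cdh15, Cdkn1b, Cdkn2d, Col3a1, Col4a1, Col6a3, Cxcr4, Dcn, Fgfr4, Gapdh, H19, Heyl, Hk2, Hmgcs1, Igf2, Itga7, Ldha, Mest, Myl1, Mylpf, Mymk, Mymx, Ncam1, Nrarp, Pdgfra, Peg10, Peg3, Per1, Pygm, Rian, Ryr1, Sik1, Skil, Smad7, Spp1, Spry1, Top2a, Ttn, Vim, mt-Co1, and the printed promoters of Myh4, Plk1 and Nr4a2. Intervals of ratios are 95% and cover counting error only. The high-passage library was not analysed here. A few genes that the naming rule or the lists hold are not reported here.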

Additional observations from a re-analysis of the deposited data

Results flagged for a closer look

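In 4 genes of the set list the difference between MPC and myoblasts was itself different in unsorted and in sorted cells. The direct test in edgeR was of the unsorted log2 fold change minus the sorted one, adjusted over all tested genes. It called 37.1% of all tested genes, so a call is not rare. Of the set list it did not call Myod1, Myf6, Myh3, Ckm, Mef2c, Myog and Myf5. For Pax7 this difference was -2.50 ± 0.47 (SE, adjusted p = 0.00131, 2.45e-06 to 0.00455 over the alternatives). The mean level of Pax7 was 86.5 ± 43.5 CPM in bulk MPC and 575 ± 69.4 CPM in bulk myoblasts, and 762 ± 147 CPM in GFP+ MPC and 897 ± 91.6 CPM in GFP+ myoblasts (SD, n = 3 each). For Axin2 this difference was -1.61 ± 0.48 (SE, adjusted p = 0.0181, 0.00508 to 0.0364 over the alternatives). The mean level of Axin2 was 16.6 ± 0.692 CPM in bulk MPC and 1.90 ± 1.06 CPM in bulk myoblasts, and 7.07 ± 1.51 CPM in GFP+ MPC and 0.262 ± 0.0347 CPM in GFP+ myoblasts (SD, n = 3 each). For Mki67 this difference was -2.32 ± 0.54 (SE, adjusted p = 0.00472, 0.000225 to 0.015 over the alternatives). The mean level of Mki67 was 91.3 ± 56.5 CPM in bulk MPC and 179.5 ± 9.73 CPM in bulk myoblasts, and 792 ± 115 CPM in GFP+ MPC and 313 ± 84.4 CPM in GFP+ myoblasts (SD, n = 3 each). For Cdkn1a this difference was 1.58 ± 0.32 (SE, adjusted p = 0.00188, 5.02e-06 to 0.0068 over the alternatives). The mean level of Cdkn1a was 1766 ± 244 CPM in bulk MPC and 1303 ± 189.5 CPM in bulk myoblasts, and 243 ± 82.8 CPM in GFP+ MPC and 536 ± 108 CPM in GFP+ myoblasts (SD, n = 3 each). Sorting, the RNA kit and, for myoblasts, the number of passages differ between the unsorted and the sorted libraries and cannot be told apart.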

How the results depend on the processing

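Of 3751 recomputed fold changes of the 269 named genes, 3603 kept their direction and their side of the threshold. Without bulk MPC replicate 2, Tgfbi (-2.58, against 0.47 with all libraries), Dcn (-0.31, against 6.22) and Pdgfra (-1.89, against 1.02) reversed; that library held most of their bulk MPC counts. Over all left-out libraries Tgfbi reached 1.48, Dcn 7.01 and Pdgfra 1.54. Library totals gave 2747 genes higher and 6985 lower in bulk MPC, 1547 higher and 5490 lower in the unsorted minus sorted difference, and fewer higher members among Wnt targets (3), IGF and fetal growth genes (5), interferon-stimulated genes (1), endothelial markers (1) and Schwann cell markers (1); this scaling moves all genes down together. Fibroblast markers had 1 higher member by DESeq2 and in the 6 libraries alone with or without the replicate block, and 5 without a filter. Endothelial markers had 1 without a filter and in the 6 libraries with the block. Leaving out 1 library gave 3 to 5 higher Wnt targets, 1 to 2 pluripotency genes, 0 to 3 endothelial, 1 to 3 Schwann cell and 1 to 2 adipocyte markers, and 3769 to 4211 genes higher and 4077 to 4614 lower in all. With the replicate block 4320 genes were higher and 4666 lower, and among named genes the block in the fit of the 15 libraries changed the calls of Hk1, Egfl7, Myh2, Col3a1, Actc1, Ccnd3 and Dcn only. In the 6 libraries with the block, Cdkn1a (adjusted p = 0.00997), Tnnt2 (0.0326), Fabp3 (0.0135), Nkd1 (0.0418), Cdh15 (0.0456), Mymx (0.0431), Vwf (0.0167), Egr1 (0.0477), Hk1, Myh2 and Col3a1 passed and Irf9 (0.0572) did not. Library totals ended the calls of Tnni1 (adjusted p = 0.0559), Chrng (0.0561), Hmgcs1 (0.264), Igf2 (0.106), Actc1 (0.15), Pmp22 (0.0871) and Ccnd3 (0.698), and length-scaled counts those of Mbp (0.104) and Ccnd3 (0.051). By estimated counts in place of TPM, chosen after seeing the data, the mean Myh7 share in bulk MPC was 0.209% (0.283% by TPM) and that of the fast troponins 58.9% (69.1%). Where no cause is given, the cause was not tested. A fit of the 6 libraries alone was not run for comparisons with other groups, which it does not hold. With 3 libraries a group, changes can be missed. In the simulated data a log2 change of 1 was recovered less often (72%) than one of 2 (90% and 94%). Smaller changes were not simulated. There, 200 genes were changed, while 58.5% of tested genes were called here, so those rates may not hold for these data.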
